A study of Mus musculus with 12 samples.

Results

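Mitochondria keep their own ribosome, which is built from RNA encoded by mitochondrial DNA and from proteins that are all encoded in the nucleus. This mitoribosome makes the mitochondrially encoded core subunits of the respiratory chain and of ATP synthase, so its proteins are required for oxidative phosphorylation, on which the heart depends for most of its energy. Its large subunit joins the amino acids, and its small subunit reads the messenger RNA. Mouse genes of the large subunit are named *Mrpl* and those of the small subunit *Mrps*, each with a number, and the mRNAs of these genes were followed here in hearts of diabetic and control mice. The members are all probes that are not controls and whose gene name on the array is *Mrpl* or *Mrps* followed by a digit. They are 77 genes with 119 probes, of 37074 genes and 56605 probes on the array, with 48 genes in *Mrpl* and 29 in *Mrps*. All 77 genes had at least 1 probe that could be tested, and 109 of the 119 probes were tested.

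Heart muscle of 12 male C57BL6/J mice aged 5 months was profiled, 1 array per mouse, with 3 mice in each group. Control mice (C) received neither agent, and mice of group C + P received pargyline, an inhibitor of monoamine oxidase, at 50 mg/kg per day for 12 weeks. Diabetic mice (D) received streptozotocin, which is toxic to pancreatic β-cells, in 5 daily doses of 50 mg/kg, and diabetic mice of group D + P received streptozotocin and then pargyline at the same doses. Streptozotocin gives a model of insulin-deficient, type 1 diabetes. Levels are given as log2 of the quantile-normalised spot intensity. A difference of 1 on this scale is a doubling of the signal, and levels of separate probes are not set against each other. Differences between groups were tested with limma, with a threshold of 0.05 on p-values adjusted by Benjamini-Hochberg across the 30857 tested probes, and where a gene has several probes it is represented by its brightest.

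Between 102 and 110 of the 119 member probes were well above background on each array. For every member except *Mrpl35* (10 arrays), the brightest probe cleared that level on all 12. C and D shared 1 slide and scan and C + P and D + P another, so slide and pargyline cannot be told apart in C + P versus C and in D + P versus D. The same holds where the diabetes difference under pargyline is set against that without it. Mice without diabetes lay in row 1 and diabetic mice in row 2 of each slide, so that diabetes and slide row cannot be told apart either. The arrays in column 1 of the slides, which were C + P replicate 1, D replicate 1 and D + P replicate 1, had the largest differences between repeated spots of a probe, with median coefficients of variation of 22.3%, 35.3% and 25.7%, against 6.03% to 19.1% on the other arrays. In whole tissue, fewer cells of a type and less RNA per cell cannot be told apart. The cardiomyocyte markers *Myh6*, *Tnnt2*, *Actc1*, *Myl2* and *Tnni3* were well above background on every array, with group means between 16.2 and 17.5.

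Promoters of the members were searched for 3 short sequences known from nuclear genes of mitochondrial proteins. RefSeq promoters, from 250 bases before to 50 bases after a gene's start on build GRCm38.p6, were present for 68 of the 77 genes, in 74 windows of 300 bases. The letters GCGCA, any base and GCGC in a row, which nuclear respiratory factor 1 (NRF1) is known to bind, were found on either strand in 13 of the 74 windows (17.6%), against 4.60% of all 32851 promoters. The letters CCGGAAG, the core bound by ETS factors such as GA-binding protein (also called NRF2), were found in 25 windows (33.8%) against 8.86%. The letters AAGATGGCG, bound by YY1, were found in 8 windows (10.8%) against 1.40%. In all, 40 of the 68 genes held at least 1 of the 3, and 6 genes held more than 1, which were *Mrpl17*, *Mrpl57*, *Mrps18a*, *Mrps21*, *Mrps26* and *Mrps27*. All 32851 promoters served as background with no matching for base content, so the excess need not be particular to the members. A match describes the letters of the window and is no evidence of binding. The windows below are shown as examples of each motif, all but that of *Mrpl35* from genes whose levels are described further on, with the motif in capitals and every window read in the direction of its gene. The first 3 hold the NRF1 letters (in *Mrpl12* on the other strand, as GCGC, any base and TGCGC), the next 3 the ETS letters (as CTTCCGG where the motif lies on the other strand) and the last 3 the YY1 letters (as CGCCATCTT on the other strand).
Mrpl44: agaagcacttGCGCACGCGCagtacactag
Mrpl32: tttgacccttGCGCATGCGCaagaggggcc
Mrpl12: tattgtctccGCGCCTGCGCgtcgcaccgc
Mrpl3: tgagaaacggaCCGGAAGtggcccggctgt
Mrps22: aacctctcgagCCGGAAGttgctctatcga
Mrps16: agtgcgcggggCTTCCGGgcgggcgtgggc
Mrps18a: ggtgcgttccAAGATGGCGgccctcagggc
Mrpl35: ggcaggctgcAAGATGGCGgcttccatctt
Mrps11: ctacgggcgcCGCCATCTTtctgtcttccc

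In GRCm38.p6 these windows are chr1:79775973-79776002 (+) for *Mrpl44*, chr13:14613105-14613134 (-) for *Mrpl32* and chr11:120484546-120484575 (+) for *Mrpl12*. The ETS windows are chr9:105053238-105053267 (+) for *Mrpl3*, chr9:98601672-98601701 (-) for *Mrps22* and chr14:20393448-20393477 (-) for *Mrps16*. The YY1 windows are chr17:46111005-46111034 (+) for *Mrps18a*, chr6:71823742-71823771 (-) for *Mrpl35* and chr7:78783013-78783042 (+) for *Mrps11*.

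No member passed the test in any comparison. In D versus C, 0 of 109 member probes passed, where 0.00648% of all tested probes did, and in D + P versus C + P 0 passed against 0.0454%. For diabetes averaged over pargyline, which is the mean of those 2 differences, 0 passed against 0.107%, and in C + P versus C 0 passed against 0.0324%. In D + P versus D 0 passed against 0% and in the interaction, the difference between D + P and C + P less that between D and C, 0 passed against 0.00648%. The smallest adjusted p of a member probe in these 6 comparisons lay between 0.134 and 1.0 (limma). At an unadjusted p under 0.05 the counts in the same order were 5, 8, 11, 2, 9 and 6 of 109 member probes, and the background shares were 10.8%, 7.46%, 11.4%, 4.43%, 13.3% and 7.03% of all tested probes. The methods' t-test, which the study names, also gave 0 member probes after adjustment in the 4 comparisons between pairs of groups, and 11, 8, 7 and 8 unadjusted in D versus C, D + P versus C + P, C + P versus C and D + P versus D, where 8.07%, 4.71%, 5.54% and 5.77% of all tested probes were.

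The precision of the arrays can be read from the 95% intervals of the members. In D versus C the interval of 72 of 77 genes lay wholly within 1 log2 unit of 0, so that a doubling or a halving lay outside it, and in D + P versus C + P this held for 69 genes. For diabetes averaged over pargyline it held for all 77 genes, and the interval of 53 lay within 0.5 log2 units. In C + P versus C and D + P versus D it held for 75 and 68 genes, and in the interaction, whose error is largest, for 54. Between mice of a group the members varied less than all tested probes, though only slightly so in D + P. The median within-group SD of the members in the order C, C + P, D, D + P was 0.10, 0.19, 0.19 and 0.25, and over all tested probes it was 0.17, 0.28, 0.34 and 0.28. The members and all tested probes were not matched in brightness.

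**Figure D1:**
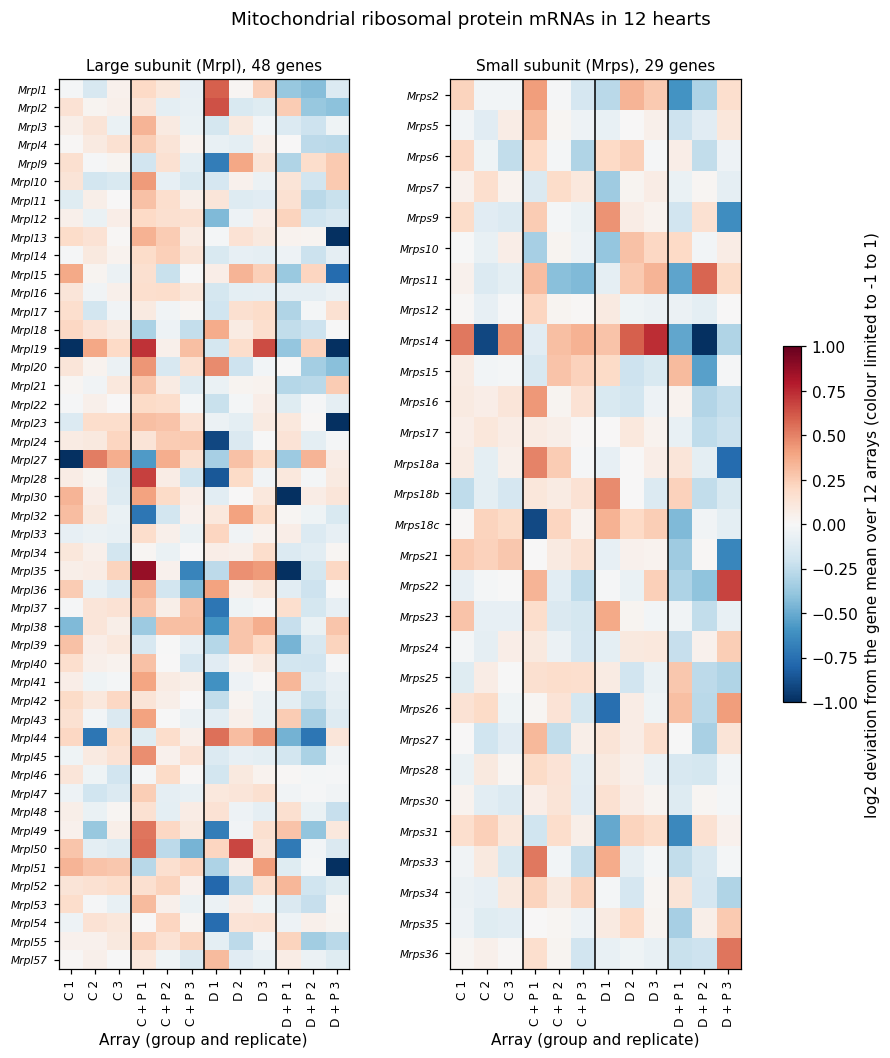
Each row is a gene of the large (48 genes, left) or small (29 genes, right) subunit and each column an array, and colour gives the log2 deviation of the brightest probe from the mean of the gene over the 12 arrays, with red higher and blue lower. Most cells are pale, C + P replicate 1 holds more red, and D replicate 1 and the 3 D + P arrays hold more blue.

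Small differences of the members leaned to one side between the groups given pargyline, which shared a slide. In D + P versus C + P 65 of 77 genes were lower in D + P, where 49% of all tested probes were, with a median difference of -0.18 over the genes and 0.0072 over all tested probes. Both subunits took part, with 43 of 48 *Mrpl* genes lower and a median of -0.20, and 22 of 29 *Mrps* genes lower and a median of -0.16. In D versus C 39 of 77 genes were lower against a background of 51.1%, with medians of -0.038 for *Mrpl* and 0.038 for *Mrps*. The *Mrpl* median was -0.065 without D replicate 2 and -5.3e-07 without D replicate 1, and the *Mrps* median was 0.015 without C replicate 2, 0.023 without D replicate 2 and -0.0024 without D replicate 3. The 2 differences do not share mice, and the interaction between them was lower than 0 for 60 of 77 genes against a background of 50.4%, with medians of -0.15 for *Mrpl* and -0.18 for *Mrps*. Whether the interaction goes with pargyline or with the slide cannot be told apart. Averaged over pargyline 54 of 77 genes were lower in diabetic hearts against 51.5%, with medians of -0.13 for *Mrpl* and -0.056 for *Mrps*. The averaged *Mrpl* median was -0.083 without C + P replicate 1, and the *Mrps* median was -0.023 without that array, -0.033 without D + P replicate 2, -0.10 without C + P replicate 3 and -0.11 without D + P replicate 3. Without the 3 arrays of slide column 1, an alternative chosen after the values were seen, they were -0.056 with 31 of 48 genes lower and -0.019 with 15 of 29 lower, against 49.3% of all tested probes. These are descriptions of the list with no test, since the genes share the same 12 hearts and no single member passed.

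The lean was next followed by group and by array. The mean level was lowest in D + P for 29 of 48 *Mrpl* and 17 of 29 *Mrps* genes, and highest in C + P for 26 *Mrpl* genes but in D for 14 *Mrps* genes. On each array the median deviation of the 77 genes from their own 12-array means was between 0.022 and 0.059 in C, between 0.0082 and 0.19 in C + P, between -0.077 and 0.050 in D and between -0.16 and -0.042 in D + P. Over the 77 genes the D + P arrays were thus below all C and all C + P arrays, and D + P and D overlapped. For *Mrps* alone the groups overlapped, since D + P replicate 3 was at -0.019, above C replicate 2 at -0.040 and C + P replicate 3 at -0.050. The highest array, C + P replicate 1, was one of the 3 in slide column 1, and without it alone the D + P versus C + P medians were -0.14 for *Mrpl* and -0.13 for *Mrps*. Without those 3 arrays 36 of 48 *Mrpl* genes were lower in D + P than C + P with a median of -0.15, and 17 of 29 *Mrps* genes with a median of -0.017, against 47.7% of all tested probes. With each array scaled to its 75th percentile in place of quantile normalisation, the medians for D + P versus C + P were -0.28 and -0.25, and the D versus C medians turned to 0.078 and 0.13.

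**Figure D2:**
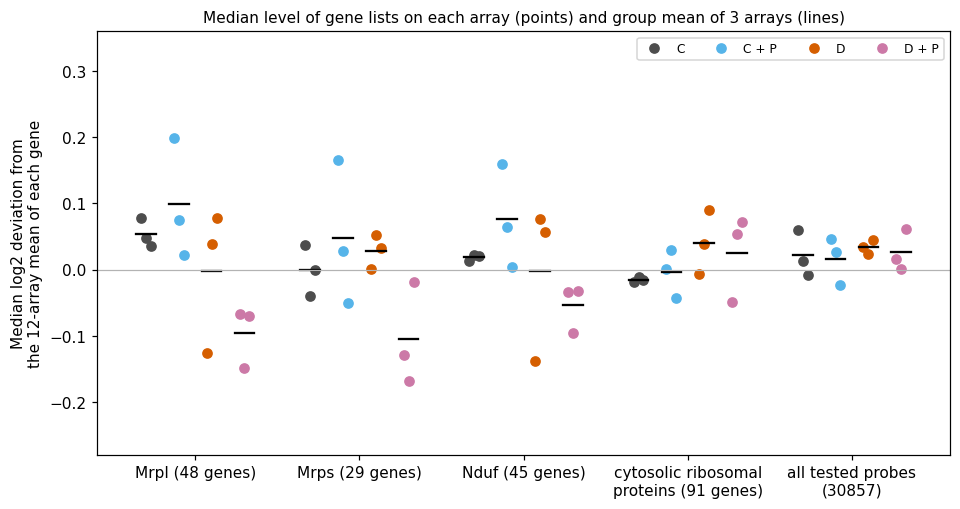
Points are the median, on each array, of the log2 deviation of the genes of a list from their own 12-array means (vertical axis), coloured by group, and lines are the means of the 3 arrays of a group. For *Mrpl* the D + P arrays lie between -0.15 and -0.068, below every C and C + P array, whereas cytosolic ribosomal proteins lie between -0.049 and 0.090 over all groups.

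Cytosolic ribosomal proteins, which build the ribosome outside mitochondria, did not show the same lean. In D + P versus C + P 42 of 91 tested genes were lower, with a median of 0.020, and in the interaction 49 were lower with a median of -0.020. The *Nduf* genes, which encode subunits and assembly factors of respiratory complex I and are likewise nuclear genes of mitochondrial proteins, lay closer to the mitoribosome. Of 45 *Nduf* genes 39 were lower in D + P than C + P with a median of -0.15, and 29 were lower than 0 in the interaction with a median of -0.069. The differences between these lists were not tested, and 0 genes of either list passed in any of the 6 comparisons.

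Markers of other cell types were set beside these values. All 4 macrophage markers (*Adgre1*, *Cd68*, *Csf1r* and *Cd14*) were lower in D + P than C + P, by -0.17 to -0.93 with a median of -0.59. Their median deviation per array ranged from 0.032 to 0.47 in C + P and from -0.56 to -0.17 in D + P. The median of the 4 endothelial markers ranged from -0.18 to 0.093 in C + P and from 0.18 to 0.30 in D + P. In the other comparisons the macrophage markers had medians of -0.26 in D versus C (4 of 4 lower), -0.39 averaged over pargyline (4 of 4), -0.37 in D + P versus D (3 of 4), -0.39 in the interaction (3 of 4) and 0.079 in C + P versus C (1 of 4). The endothelial markers were higher in 4 of 4 in D + P versus D, with a median of 0.13. In D + P versus C + P the 5 cardiomyocyte markers had a median difference of 0.022, with 2 of 5 lower, the 4 fibroblast markers one of 0.078 and the 3 red cell markers one of -0.026. Of the adipocyte markers *Plin1* was well above background on 0 arrays and *Cfd* on 5. None of these markers passed the test in any comparison, and their part in the lean of the members was not tested.

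**Figure D3:**
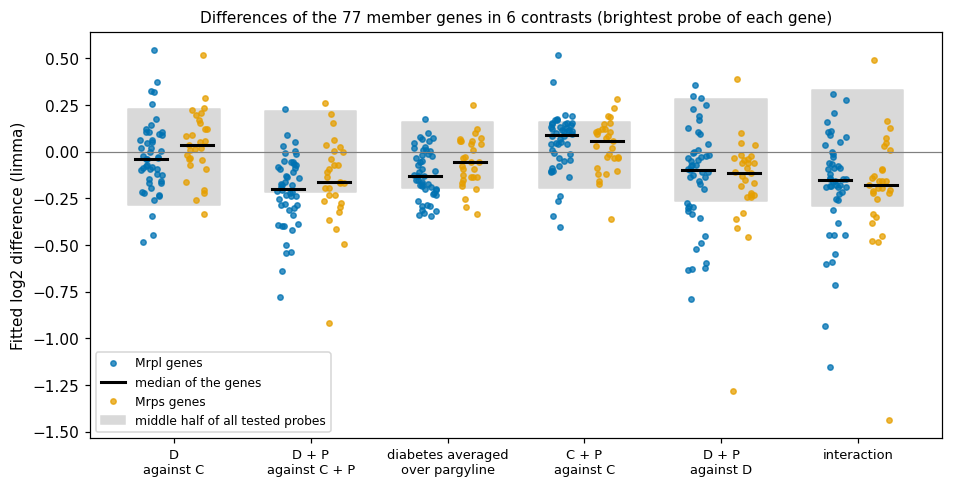
Points are the fitted log2 differences of the 48 *Mrpl* and 29 *Mrps* genes in 6 comparisons, black lines are their medians, and grey boxes span the middle 50% of all tested probes. The medians in D + P versus C + P are -0.20 and -0.16, and *Mrps14* is the lowest point in D + P versus C + P, D + P versus D and the interaction.

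The largest differences belonged to 3 members, *Mrps14*, *Mrpl44* and *Mrpl19*, and each of them also varied widely between mice of a group. *Mrps14* encodes a small-subunit protein of bacterial type that lies near the decoding site. Its probe (mm9 chr1:162129889-162129948) read 11.13, 9.69 and 11.05 in C, 10.48, 10.90 and 10.94 in C + P, 10.89, 11.20 and 11.34 in D, and 10.08, 9.20 and 10.30 in D + P. The D + P arrays lay below all C + P and all D arrays, while C replicate 2 lay far below the other C arrays. *Mrps14* differed by -0.92 ± 0.39 (SE, n = 3 mice per group) in D + P versus C + P (limma, adjusted p = 0.648), which was -0.59 without D + P replicate 2, and by -1.28 ± 0.39 in D + P versus D (adjusted p = 0.233). In the interaction it differed by -1.44 ± 0.55 (adjusted p = 0.693) and in D versus C by 0.52 ± 0.39 (adjusted p = 0.627), which was 0.054 without C replicate 2. None of these passed.

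*Mrpl44* encodes a large-subunit protein near the exit of the peptide tunnel, and human *MRPL44* is known as a gene of infantile cardiomyopathy. Its probe (mm9 chr1:79777892-79777951) read 10.77, 9.84 and 10.75 in C, 10.44, 10.74 and 10.62 in C + P, between 10.87 and 11.12 in D, and 10.10, 9.84 and 10.69 in D + P. All 3 D arrays lay above all C arrays and above all D + P arrays, and C replicate 2 and D + P replicate 2 were the lowest arrays, as for *Mrps14*. The difference was 0.54 ± 0.28 (SE, n = 3 mice per group) in D versus C (limma, adjusted p = 0.501) and -0.79 ± 0.28 in D + P versus D (adjusted p = 0.278). Without C replicate 2 the D versus C difference was 0.24 and the difference averaged over pargyline turned from 0.08 to -0.08, and without D + P replicate 3 to -0.04. The dimmer of the 2 tested *Mrpl44* probes differed by 0.62 on average. In D + P versus C + P that probe differed by 0.46 and the brightest by -0.39.

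*Mrpl19*, a bacterial-type protein of the large subunit, read 7.80, 9.25 and 9.07 in C, 9.59, 8.92 and 9.17 in C + P, 8.69, 9.04 and 9.52 in D, and 8.48, 9.09 and 7.77 in D + P (mm9 chr6:81911970-81912029). Every pair of groups overlapped. Its differences were -0.78 ± 0.43 (SE, n = 3 mice per group) in D + P versus C + P (limma, adjusted p = 0.717), 0.52 ± 0.43 in C + P versus C (adjusted p = 1.0) and -1.15 ± 0.61 in the interaction (adjusted p = 0.733). The interval of the first ran from -1.72 to 0.17, and its value was -0.44 without D + P replicate 3. Without C replicate 1 the C + P versus C difference was 0.064 and the interaction -0.70, and the former was 0.79 without C replicate 2 and 0.34 without C + P replicate 1.

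Averaged over pargyline, the lowest members were *Mrpl24*, *Mrpl13* and *Mrps21*. *Mrpl24*, which helps start the assembly of the large subunit, read 12.26, 12.27 and 12.39 in C, 12.31, 12.43 and 12.43 in C + P, 11.26, 12.03 and 12.17 in D, and 12.31, 12.07 and 12.16 in D + P. The D arrays lay below all C arrays, with the lowest on D replicate 1, and the D + P arrays overlapped those of C + P. It differed by -0.48 ± 0.22 (SE, n = 3 mice per group) in D versus C (limma, adjusted p = 0.462), by -0.35 ± 0.15 on average (adjusted p = 0.426) and by 0.36 ± 0.22 in D + P versus D (adjusted p = 0.48). Without D replicate 1 these were -0.21, -0.21 and 0.082.

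*Mrpl13*, a protein of the large subunit's body, showed what 1 array can do to a group mean. It read 12.13, 12.09 and 11.96 in C, 12.29, 12.20 and 12.02 in C + P, 11.92, 12.09 and 12.04 in D, and 11.98, 11.97 and 10.64 in D + P. Only D + P replicate 3 stood apart, and the averaged difference of -0.34 ± 0.22 (limma, adjusted p = 0.581) was -0.12 without it. The same array was the lowest of *Mrpl23*, at 12.05 where the other 11 arrays lay between 12.93 and 13.36, and of *Mrps18a*, at 10.95. *Mrpl23*, which sits at the exit of the peptide tunnel, differed by -0.54 ± 0.26 in D + P versus C + P (adjusted p = 0.678), and its averaged difference of -0.32 was -0.14 without D + P replicate 3.

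*Mrps21* encodes a small-subunit protein of bacterial type. It read 14.03, 14.00 and 14.04 in C, 13.77, 13.86 and 13.92 in C + P, 13.69, 13.81 and 13.80 in D, and 13.41, 13.78 and 13.11 in D + P. Both the D and the C + P arrays lay below all C arrays, and D + P overlapped D and C + P by 1 array. The averaged difference was -0.33 ± 0.12 (SE, n = 3 mice per group; limma, adjusted p = 0.352). The 3 tested *Mrps21* probes did not share this fall. They ran from -0.33 to 0.0024 on average and from -0.26 to 0.21 in D versus C, with the brightest the lowest in both. In D + P versus C + P all were lower, by -0.50 to -0.11.

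**Figure D4:**
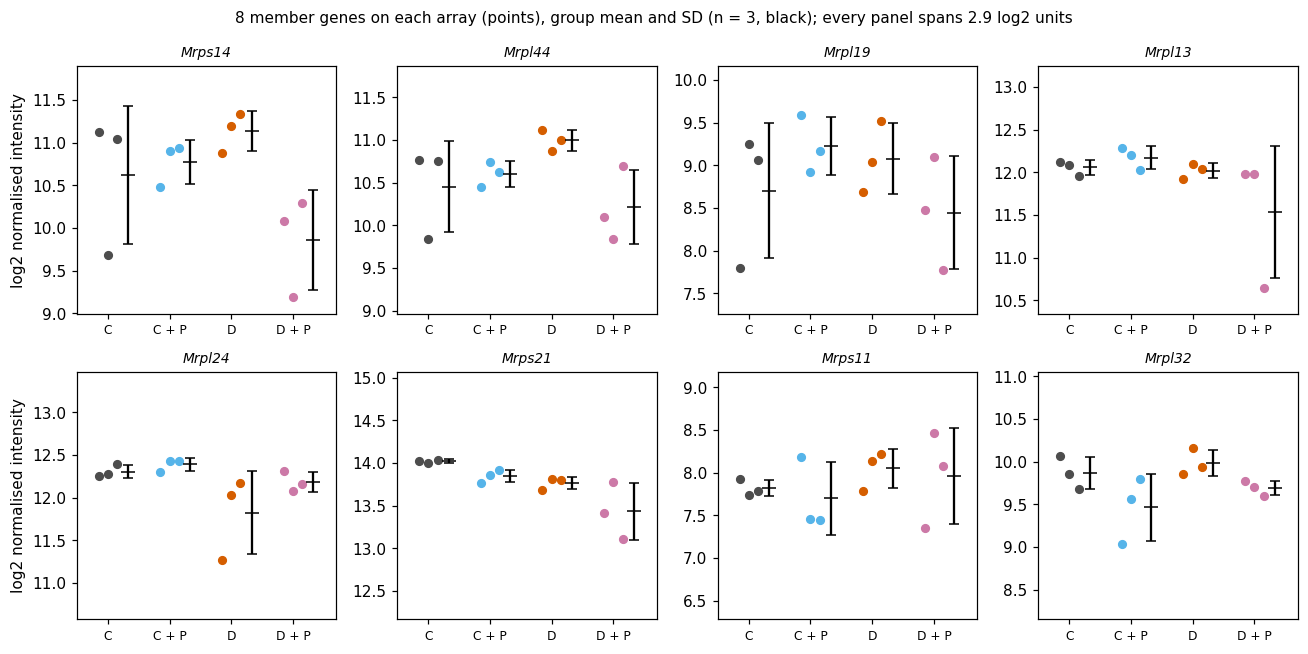
Points are the log2 normalised intensity of the brightest probe of 8 genes on each array, by group, with the group mean and SD of 3 arrays in black, and every panel spans the same range of 2.9 log2 units. *Mrps14* and *Mrpl44* are lowest on C replicate 2 and D + P replicate 2, and *Mrpl13* departs on D + P replicate 3 only.

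The highest members averaged over pargyline were *Mrps11*, *Mrpl32* and *Mrps10*, and none passed. *Mrps11*, a bacterial-type protein of the small subunit's platform, read 7.92, 7.74 and 7.78 in C, 8.19, 7.46 and 7.44 in C + P, 7.79, 8.14 and 8.22 in D, and 7.35, 8.46 and 8.08 in D + P. In both pairs the groups overlapped, and the averaged difference was 0.25 ± 0.20 (limma, adjusted p = 0.676). It was 0.12 without D + P replicate 2, 0.40 without D + P replicate 1 and 0.59 without the 3 arrays of slide column 1 (adjusted p = 0.0783). *Mrpl32*, whose precursor is known to be cut by the m-AAA protease before it joins the large subunit, averaged 9.87, 9.46, 9.99 and 9.69 in C, C + P, D and D + P. It differed by 0.18 ± 0.14 on average (adjusted p = 0.675) and by -0.40 ± 0.20 in C + P versus C (adjusted p = 1.0), the largest negative difference of a member in that comparison. Without C + P replicate 1 these were 0.067 and -0.19. *Mrps10* differed by 0.12 ± 0.14 on average (adjusted p = 0.767), and by between 0.057 and 0.23 with 1 array left out, the ends being those without D replicate 2 and D replicate 1.

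The other members at the ends of a comparison were also unremarkable against their error. *Mrpl52* differed by -0.45 ± 0.23 in D versus C (limma, adjusted p = 0.505), with the D arrays at 12.16, 12.68 and 13.11 and the C arrays between 13.07 and 13.12, and the value was -0.20 without D replicate 1 and -0.68 without D replicate 3. *Mrpl49* differed by 0.37 ± 0.26 and *Mrps18c* by -0.36 ± 0.26 in C + P versus C (both adjusted p = 1.0), and the value of *Mrps18c* rested on C + P replicate 1, at 10.46 against 11.58 and 11.40, and was -0.016 without it. That of *Mrpl49* was 0.23 without C replicate 2 and 0.25 without C + P replicate 1. *Mrps26* differed by 0.39 ± 0.25 in D + P versus D (adjusted p = 0.502) and by 0.49 ± 0.35 in the interaction (adjusted p = 0.771), with D replicate 1 the lowest of its 12 arrays at 12.03. Without that array the values were 0.14 and 0.24, and the first was 0.60 without D + P replicate 2 and 0.26 without D + P replicate 3.

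Among proteins of known place in the large subunit, those of the stalk did not pass the test. *Mrpl12*, which forms the flexible stalk that recruits translation factors and is also known to bind the mitochondrial RNA polymerase, had group means of 13.15 ± 0.07 (C), 13.30 ± 0.03 (C + P), 12.99 ± 0.27 (D) and 13.09 ± 0.24 (D + P), with SD and n = 3 each. All C + P arrays, at 13.33, 13.29 and 13.28, lay above all C arrays, at 13.18, 13.07 and 13.20, and the averaged diabetes difference was -0.19 ± 0.12 (SE; limma, adjusted p = 0.597) and -0.11 without D replicate 1. *Mrpl10*, which anchors the stalk, differed by 0.0037 ± 0.14, with an interval from -0.30 to 0.31. *Mrpl11*, at the base of the stalk, differed by -0.15 ± 0.11 (adjusted p = 0.641).

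*Mrpl45*, which tethers the ribosome to the inner membrane where its products are inserted, was the landmark whose diabetic arrays lay below the control arrays in both pairs. It read 11.74, 11.87 and 11.93 in C against 11.65, 11.70 and 11.69 in D, and 12.25, 11.83 and 11.93 in C + P against 11.60, 11.47 and 11.75 in D + P (mm9 chr11:97190353-97190412). Such a split in both pairs in the lower direction was found for 4 of 48 *Mrpl* and 0 of 29 *Mrps* genes, where 1.29% of all tested probes had it, and in the higher direction for 0 genes against 1.21%. The averaged difference of *Mrpl45* was -0.28 ± 0.11 (SE; limma, unadjusted p = 0.0251, adjusted p = 0.377), with an interval from -0.52 to -0.04. *Mrpl3*, a core protein near the peptidyl transferase centre, differed by -0.16 ± 0.11 (adjusted p = 0.597), and by -0.11 without C + P replicate 1.

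In the small subunit, *Mrps16* had the smallest unadjusted p of the landmarks, 0.0214 (limma). *Mrps16*, a bacterial-type protein needed for assembly of the subunit, read 13.44, 13.42 and 13.48 in C, 13.79, 13.38 and 13.50 in C + P, 13.20, 13.17 and 13.31 in D, and 13.39, 13.07 and 13.12 in D + P. The D arrays lay below all C arrays, D + P overlapped C + P by 1 array, and the averaged difference was -0.29 ± 0.11 (SE; limma, adjusted p = 0.363). *Mrps12*, a protein of the decoding centre, stayed between 11.64 and 11.95 on the 12 arrays and differed by -0.06 ± 0.09 (adjusted p = 0.846), with an interval from -0.26 to 0.15 and a value of -0.023 without C + P replicate 1.

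*Mrps22*, a mitochondria-specific protein whose human gene is a known cause of infantile cardiomyopathy, differed by 0.04 ± 0.19. Its D + P arrays lay at 9.20, 9.11 and 10.18, and without D + P replicate 3 the averaged value was -0.13. The 3 paralogues *Mrps18a*, *Mrps18b* and *Mrps18c* occupy separate places in the mitoribosome and had averaged differences of -0.25 ± 0.16, 0.06 ± 0.13 and 0.07 ± 0.18 (adjusted p = 0.575, 0.891 and 0.903), and that of *Mrps18a* was -0.12 without D + P replicate 3. The names of *Mrps18a* and *Mrps30* place them in the small subunit although both proteins are now known to lie in the large one, and *Mrps30* differed by 0.04 ± 0.09, or by between 0.0049 (without C + P replicate 3) and 0.066 (without C replicate 1) with 1 array left out. *Mrps36*, now known as a subunit of the 2-oxoglutarate dehydrogenase complex and no ribosomal protein, differed by -0.03 ± 0.14. With *Mrps18a* and *Mrps30* moved to the large subunit and *Mrps36* left out, the medians for D + P versus C + P were -0.20 and -0.16.

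The members were also counted by a list of bacterial-type proteins against the other members of each name. Of 30 large-subunit proteins of bacterial type 25 were lower in D + P than C + P with a median of -0.21, and of the 18 other *Mrpl* genes 18 were lower with a median of -0.18. In the small subunit 12 of 16 bacterial-type genes were lower with a median of -0.18 and 10 of the 13 other *Mrps* genes with a median of -0.11. Those 13 include *Mrps18a* and *Mrps18b*, which are paralogues of a bacterial-type protein, as well as *Mrps30* and *Mrps36*. A further list of 7 mitoribosome genes, of which *Mrpl57* is also a member, held *Dap3*, *Ptcd3*, *Chchd1*, *Aurkaip1*, *Gadd45gip1* and *Ict1*, and all 7 were lower, with a median of -0.25, although its array medians overlapped, with D + P at 0.074, -0.28 and -0.12 and C + P at 0.21, 0.039 and 0.060. *Dap3*, which encodes a GTP-binding protein of the small subunit, had means of 13.35 (C), 13.11 (C + P), 12.98 (D) and 12.86 (D + P), and its averaged difference was -0.31 ± 0.18 (SE; limma, adjusted p = 0.546).

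The genes that serve the mitoribosome were counted in lists, and 0 of them passed the test in any of the 6 comparisons. Of 16 translation factors 10 were lower in D + P than C + P with a median of -0.14, of 25 assembly factors 17 with a median of -0.038, and of 20 mitochondrial aminoacyl-tRNA synthetases and GatCAB subunits 15 with a median of -0.15. Of 15 genes of mitochondrial DNA transcription and maintenance 6 were lower, with a median of 0.11. The array medians of D + P and C + P overlapped in each of these 4 lists, and in the last one they lay with D + P at -0.16, -0.11 and 0.21 and C + P between -0.17 and 0.088. *Tufm*, the mitochondrial elongation factor that brings aminoacyl-tRNA to the ribosome, read 13.36, 13.30 and 13.51 in C, 13.44, 13.48 and 13.59 in C + P, 12.52, 12.99 and 13.15 in D, and 13.48, 12.92 and 13.04 in D + P. All D arrays lay below all C arrays, and its averaged difference was -0.43 ± 0.14 (SE; limma, adjusted p = 0.311).

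The regulators of the mitochondrial genome showed no called difference either. *Tfam*, which packages mitochondrial DNA and starts its transcription, differed by 0.25 ± 0.16 averaged over pargyline (SE; limma, adjusted p = 0.6), and *Polrmt*, the mitochondrial RNA polymerase, by -0.18 ± 0.11 (adjusted p = 0.567). *Lrpprc*, which stabilises mitochondrial mRNAs, differed by -0.30 ± 0.16 (adjusted p = 0.518) in a fit without D replicate 1, where its spot was an outlier and was treated as missing. *Ppargc1a*, the coactivator PGC-1α that works with NRF1 and oestrogen-related receptors on nuclear genes of mitochondrial proteins, differed by 0.23 ± 0.13 (adjusted p = 0.525). Members with and without a promoter motif were set side by side with no test of the difference. In D + P versus C + P the median was -0.21 with the NRF1 letters and -0.17 without, -0.13 with the ETS letters and -0.21 without, and -0.16 with the YY1 letters and -0.17 without. Averaged over pargyline the medians in the same order were -0.070 and -0.11, -0.055 and -0.13, and -0.074 and -0.097.

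Probes of 1 gene did not always share a sign. Of the 26 members with several tested probes, at least 1 probe opposed another in sign in 12 genes in D versus C, 12 in D + P versus C + P, 15 averaged over pargyline, 17 in C + P versus C, 11 in D + P versus D and 9 in the interaction. The 3 probes described next were picked after their values were seen. They are dim, and the array annotates each with an Ensembl transcript and the brightest probe of the gene with a RefSeq one. Whether they detect another transcript than the brightest probe was not tested. The dim probe of *Mrps18a* (mm9 chr17:46264387-46264446) read 5.27, 6.05 and 6.23 in C, 5.49, 5.90 and 6.53 in C + P, 3.31, 4.76 and 3.94 in D, and 5.82, 6.23 and 6.10 in D + P. The D arrays lay below all others, and none of them was well above background, so that the level in D is only a bound.

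The mean of that *Mrps18a* probe in C was at least 1.38-fold above D, and the mean in D + P at least 1.58-fold above it. On each D array the bound is the higher of the probe's own signal and the lowest signal of any probe well above background. The group means were 5.85 in C, 4.00 in D and 6.05 in D + P, and the adjusted p was 0.237 in D versus C and 0.134 in D + P versus D (limma). The brightest *Mrps18a* probe averaged 11.73 in C and 11.71 in D and differed by -0.02 ± 0.23. A further probe of *Mrpl13* (mm9 chr15:55381049-55381108) read 6.69, 6.58 and 6.38 in C, 5.86, 6.54 and 6.04 in C + P, 5.70, 6.27 and 5.58 in D, and 7.24, 6.48 and 7.18 in D + P. Its difference was -0.70 ± 0.27 in D versus C (adjusted p = 0.414) and 0.82 ± 0.27 in D + P versus C + P (adjusted p = 0.528), whereas the brightest *Mrpl13* probe differed by -0.04 and -0.64.

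The dim probe of *Mrpl38*, a mitochondria-specific protein of the large subunit, had diabetes differences of opposite sign with and without pargyline. It read 5.05, 5.46 and 5.63 in C, 6.20, 5.76 and 6.13 in D, 6.04, 5.68 and 6.14 in C + P, and 4.92, 5.29 and 5.50 in D + P (mm9 chr11:115999606-115999665). All D arrays lay above all C arrays, and all D + P arrays below all C + P arrays. Its interaction was -1.37 ± 0.32 (SE, n = 3 mice per group; limma, unadjusted p = 0.00133, adjusted p = 0.565), which did not pass. It was well above background on 8 of 12 arrays.

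**Figure D5:**
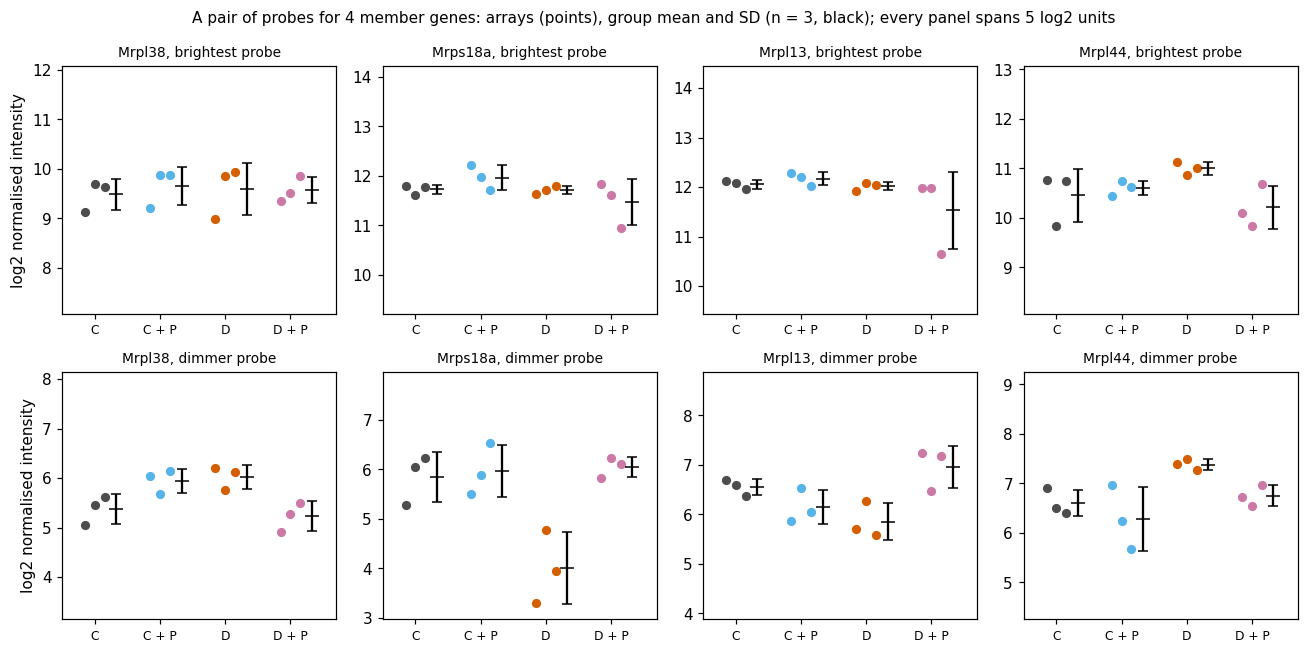
Points are the log2 normalised intensity on each array, by group, of the brightest probe (top) and a dimmer probe (bottom) of *Mrpl38*, *Mrps18a*, *Mrpl13* and *Mrpl44*, with the group mean and SD of 3 arrays in black and every panel spanning 5 log2 units. The dimmer probes of *Mrps18a*, *Mrpl38* and *Mrpl13* separate D from C while the brightest probes of these genes do not. The brightest *Mrpl44* probe also separates D from C.

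In the comparisons of pargyline with no drug, the members were counted in control and in diabetic mice, but slide and pargyline cannot be told apart there. In C + P versus C 50 of 77 genes were higher in C + P against 49% of all tested probes, with medians of 0.090 for *Mrpl* and 0.055 for *Mrps*. Without C + P replicate 1 the medians were 0.0028 and -0.012, with 24 of 48 *Mrpl* and 17 of 29 *Mrps* genes lower in C + P against 52.7%, so that the lean rested on that array. The *Mrps* median was also 0.030 without C replicate 2, 0.10 without C replicate 1 and 0.12 without C + P replicate 3. In D + P versus D 60 of 77 genes were lower in D + P against 50.1%, with medians of -0.095 for *Mrpl*, which was -0.061 without D + P replicate 2, and -0.11 for *Mrps*, which was -0.18 without D + P replicate 1. The groups did not overlap for 13 lower and 1 higher gene of 77 in D + P versus D, where 9.12% and 7.92% of all tested probes were split in these directions, and for 11 lower and 0 higher in D + P versus C + P, against 6.57% and 7.31%. In D versus C the split was found for 10 lower and 5 higher genes against 10.4% and 11.9%, and in C + P versus C for 4 lower and 7 higher against 8.01% and 7.35%.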

How the data were processed

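Total RNA of 12 mouse hearts was hybridised to 1-colour Agilent gene expression arrays, 1 mouse per array and 3 mice per group, and groups were taken from the sample labels. The deposited files hold the authors' scanner output, in which the processed signal is a background-corrected spot intensity on a linear scale (Feature Extraction 12.0.0.7 per the file headers, another version than the study's methods name). The deposited series table holds quantile-normalised intensities on a linear scale, made by the authors, and served, after log2, only as an alternative. Outlier spots were taken as missing and control spots dropped. The log2 signals were quantile normalised between arrays, after which the mean was taken over repeated spots. A probe was tested if, in each group, 50% or more of its values were called positive and significant, which left 30857 of 56605. The study set values that failed this filter to missing, whereas here the 2.04% of tested values that failed it were kept. Group means were fitted in limma 3.58.1 (R 4.3.3), and 6 contrasts were tested with Benjamini-Hochberg adjustment over all tested probes. Intervals are 95% intervals of that fit and P-values are two-sided. Named genes were the 3 highest and 3 lowest members for diabetes averaged over pargyline, the 2 highest and 2 lowest in each other comparison, and a list of landmarks, and the probes noted in the text as picked later. From the other lists *Dap3*, *Tufm*, *Tfam*, *Polrmt*, *Lrpprc* and *Ppargc1a* were also named, whether or not they passed. The members and lists were chosen with earlier results of these data known. The labels do not say more on how mice relate, and 12 arrays limit the precision. Gene names were those of the array, and 99 of the 119 member probes matched a RefSeq accession, with 0 differing names. Probe positions are those of the files (mm9). Motifs were searched in RefSeq promoters with Python 3.11.15. The fit was tested on simulated data. Alternatives were other scaling, background and filters, the deposited table, array weights, the mean over all tested probes of a gene, other placement of 3 members, slide and replicate blocks, fits within a slide, each array left out, the methods' t-test with Bonferroni or Benjamini-Hochberg adjustment and, chosen after seeing the data, leaving out slide column 1.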

Additional observations from a re-analysis of the deposited data

Results flagged for a closer look

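The fitted interaction of a dim probe of *Mrpl38*, picked after its values were seen, was -1.37 ± 0.32 on the log2 scale (SE; limma, unadjusted p = 0.00133, adjusted p = 0.565), and did not pass the threshold over all probes. All 3 D arrays lay above all C arrays and all 3 D + P arrays below all C + P arrays. The probe was well above background on only 8 of 12 arrays (all 3 C + P arrays, 2 each of C and D, and 1 of D + P), so the low values are close to background and the size of the difference is uncertain. The brightest *Mrpl38* probe did not separate the groups.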

How the results depend on the processing

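The count of member probes past the threshold was 0 in every comparison that each alternative covered (4 for the methods' t-test, 2 within the slide), while the counts over all tested probes moved with the settings. In the order D versus C, D + P versus C + P, averaged, C + P versus C, D + P versus D and interaction, the counts were 2, 14, 33, 10, 0 and 2. Array weights gave 279, 39, 348 and 206 for the first 4 and 4 for the interaction. Normexp background correction gave 2 in D + P versus D and 4 in the interaction, and setting failed values to missing gave 6 and 4. Without a filter on dim probes the counts were 24 in D + P versus C + P, 16 averaged, 9 in D + P versus D and 5 in the interaction, and with a filter on well-above-background probes 7, 67, 3 and 4. With the replicate block they were 0, 8, 4 and 6 in the first 4 and 0 in the interaction, but replicate numbers did not pair the mice (correlations of deviations between -0.20 and 0.20, and 5 of 12 arrays closest to an array of their own number). Within the slide they were 0 in D versus C and 2 in D + P versus C + P. The methods' t-test gave 0 in D versus C, D + P versus C + P and C + P versus C and 1 in D + P versus D, with either adjustment. Without the arrays of slide column 1, chosen after seeing the data, they were 0, 28, 113 and 5 in the first 4 and 0 in the interaction. Leaving out 1 array at a time gave 0 to 5, 5 to 32, 3 to 116, 4 to 12, 0 to 0 and 0 to 2. The causes were not tested.

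The medians of *Mrpl* and *Mrps* in D + P versus C + P stayed below 0 under all 24 alternatives. Many of these left both medians at their main values of -0.20 and -0.16 and so could not test the sign. Among them were the fits without a C or a D array, the changes of filter, the replicate block and the fit within the slide. With scaling to the 75th percentile the medians of *Mrpl* and *Mrps* were 0.078 and 0.13 in D versus C, -0.28 and -0.25 in D + P versus C + P, -0.26 and -0.25 in D + P versus D, and -0.36 and -0.38 in the interaction. With normexp the *Mrps* medians were 0.15 in D versus C, -0.071 in D + P versus C + P and 0.019 averaged. Without slide column 1 the *Mrps* median was -0.017 in D + P versus C + P and the *Mrpl* median 0.0028 in C + P versus C and -0.16 in D + P versus D. Leaving out 1 array, the *Mrpl* median in C + P versus C ran from 0.0028 (without C + P replicate 1) to 0.13.

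Several genes turned sign, among them *Mrpl32* and *Mrpl3*, whose averaged differences were 0.18 and -0.16. With the 75th percentile *Mrpl10* was at -0.0024 and *Mrps36* at 0.030, and in the deposited table *Mrpl10* was at -0.00032. With normexp the averaged values were -0.0043 for *Mrpl32*, -0.037 for *Mrpl10*, 0.042 for *Mrpl3*, 0.085 for *Mrps12*, -0.048 for *Mrps18b*, -0.015 for *Mrps18c* and 0.17 for *Mrps36*, and *Mrpl32* was at -0.039 in D + P versus C + P. With array weights *Mrps18b* was at -0.021 and *Mrps18c* at -0.092. Without slide column 1 they were at -0.10 and -0.056, *Mrps36* was at 0.080, *Mrpl32* at -0.024 in D + P versus C + P and *Mrpl52* at -0.090 in the interaction. Leaving out 1 array, the averaged ranges were -0.050 to 0.095 for *Mrpl10*, -0.077 to 0.17 for *Mrpl44*, -0.13 to 0.14 for *Mrps22*, -0.030 to 0.12 for *Mrps18b*, -0.097 to 0.18 for *Mrps18c* and -0.15 to 0.037 for *Mrps36*. Of 53 subunit medians and differences of named genes, 29 moved by over 1.5 times or across 0 without slide column 1, 22 with array weights, 21 with normexp, 16 with the 75th percentile and 2 in the deposited table. With the mean over all tested probes of a gene in place of the brightest probe, 3 of 12 subunit medians did so, *Mrpl* at -0.015 in D versus C and *Mrpl* and *Mrps* at 0.060 and 0.035 in C + P versus C. Dimness limits the values of the probes picked later.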
